A study of Homo sapiens with 12 samples.

Results

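The 9 genes described here are the neurotrophins BDNF and NTF3, the neurotrophin receptors NTRK2, NTRK3 and NGFR, the GDNF family receptors GFRA1, GFRA2 and RET, and the secreted neuropeptide precursor VGF. They were taken by symbol from the 63925 Ensembl gene IDs counted in each library, and each symbol matched 1 ID. All 9 passed the filter on low counts and were tested with 17819 genes in all. RNA was counted in 12 neural cultures derived from the human embryonic stem cell lines H9 and H1. The groups were H9 with 1 µM dexamethasone for 6 h, H9 with DMSO vehicle, H1 with 1 µM dexamethasone for 6 h and H1 with DMSO vehicle, with 3 sister cultures in each. Dexamethasone is a synthetic agonist of the glucocorticoid receptor. Every culture had been differentiated for 10 weeks by inhibition of SMAD signalling, from stem cells kept on mouse embryonic fibroblasts. Every culture, vehicle included, was also kept in medium with 10 ng/mL of BDNF protein, 10 ng/mL of GDNF protein, 200 nM cyclic AMP, ascorbic acid and B-27 supplement. All values therefore describe RNA of cells that were already receiving both ligands. Each line is a single line, and the sister cultures measure neither the spread between differentiations nor that between lines in general.

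Neurotrophins are secreted proteins that keep neurons alive and shape their synapses. BDNF binds the receptor tyrosine kinase TrkB, encoded by NTRK2, and NT-3, encoded by NTF3, binds mainly TrkC, encoded by NTRK3, while NGFR encodes p75, which binds all neurotrophins and their precursors. GDNF binds GFRα1 and neurturin binds GFRα2, both of which are anchored to the membrane by a lipid and signal through the kinase RET. VGF is stored in dense-core vesicles, is cut into peptides and is known as a gene that BDNF and cyclic AMP induce. BDNF transcription starts from several promoters and is known to respond to calcium and cyclic AMP, and glucocorticoids have been reported to lower it in rodent brain.

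Promoter windows of 7 of the 9 genes were found in the RefSeq table of build GRCh38.p14, 19 windows in all, each from 250 bases before to 50 bases after an annotated start. NGFR and GFRA2 were not among them. VGF and 1 of the 5 BDNF windows are shown because both genes encode secreted products and all cultures were kept in cyclic AMP. They are also windows that hold a match, so the matches are part of the choice. NTF3 encodes a secreted product too, but its windows hold no match. The VGF window holds the full cyclic AMP response element, and the BDNF window only its short core, which is common among all windows. Both are on the minus strand and are written 5′ to 3′ along the gene, at chr7:101165520-101165819 for VGF and at chr11:27701572-27701871 for BDNF. Capitals mark the cyclic AMP response element TGACGTCA in VGF, which begins at position -79 from the start, and its core TGACG, read as CGTCA on this strand, in BDNF, which begins at position -47.
VGF: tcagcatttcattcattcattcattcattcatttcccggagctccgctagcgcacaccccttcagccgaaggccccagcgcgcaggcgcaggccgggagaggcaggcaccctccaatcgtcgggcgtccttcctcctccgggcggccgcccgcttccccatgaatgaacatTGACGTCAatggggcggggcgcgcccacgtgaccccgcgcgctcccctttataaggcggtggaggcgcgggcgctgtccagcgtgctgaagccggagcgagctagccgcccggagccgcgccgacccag
BDNF: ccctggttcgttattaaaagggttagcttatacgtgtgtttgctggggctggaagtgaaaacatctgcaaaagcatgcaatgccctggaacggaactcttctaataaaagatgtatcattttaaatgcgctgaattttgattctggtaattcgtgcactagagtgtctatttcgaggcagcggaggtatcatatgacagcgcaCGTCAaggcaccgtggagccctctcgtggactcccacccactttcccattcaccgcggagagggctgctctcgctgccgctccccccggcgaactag

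Across the 35114 promoter windows of the table, 1.85% held TGACGTCA and 24.6% held the core TGACG on either strand. In VGF the full element contains the core on both strands. The core was also found in 1 of 5 BDNF windows, 1 of 4 NTRK2 windows and 1 of 4 GFRA1 windows, and in no window of NTF3, NTRK3 or RET. Matches of the core at about the share of all windows set none of these genes apart. None of the 19 windows held the AP-1 motif TGANTCA, which 7.71% of all windows held, or the full glucocorticoid response element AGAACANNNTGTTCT, which was found in 1 window of the table. These matches describe letters in short windows only.

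Total counts were 14751168 to 27505804 per library. H9 vehicle culture 3 stood apart from its sisters: its total was the lowest, and its share of mitochondrial counts was 0.607%. That share was 4.80% to 5.64% for the remaining H9 cultures and 2.91% to 3.23% for H1. Among the 9 genes it gave the highest of the 3 H9 vehicle values for 8 and the lowest for NTRK2, so fitted differences of the 9 genes that involve the H9 vehicle group are also given without it. Levels are CPM, that is, counts relative to library size, scaled by the trimmed mean of M values (TMM), and differences are log2 fold changes from edgeR's quasi-likelihood F-test with Benjamini-Hochberg adjustment, called at an adjusted p under 0.05.

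All 9 genes were higher in H9 than in H1 cultures, whether the cultures had received dexamethasone or vehicle, and none of the 9 passed the test for dexamethasone in either line. The differences between lines ran from log2 0.44 for GFRA1 to 2.66 for GFRA2 in dexamethasone cultures and from 0.42 for GFRA1 to 2.56 for GFRA2 in vehicle cultures. VGF, NTRK2, BDNF and NTF3 differed by log2 1.68 to 2.47 in both settings, and NTRK3 by 0.76 in dexamethasone and 0.74 in vehicle cultures. For comparison, 22.5% of all tested genes were called higher in H9 in dexamethasone cultures and 25.7% in vehicle cultures. The 9 of 9 called stood beside these shares, and the median of the 9 was 1.68 in dexamethasone and 1.76 in vehicle cultures, against -0.01 and 0.03 for all tested genes. In dexamethasone cultures every H9 library lay above every H1 library for 8 of the 9 genes, all but GFRA1, as was so for 33.7% of all tested genes. In vehicle cultures this held for 9 of the 9, as it did for 27.5% of all tested genes. In bulk RNA, a higher share of cells that make a transcript and more transcript per cell cannot be told apart.

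**Figure D1:**
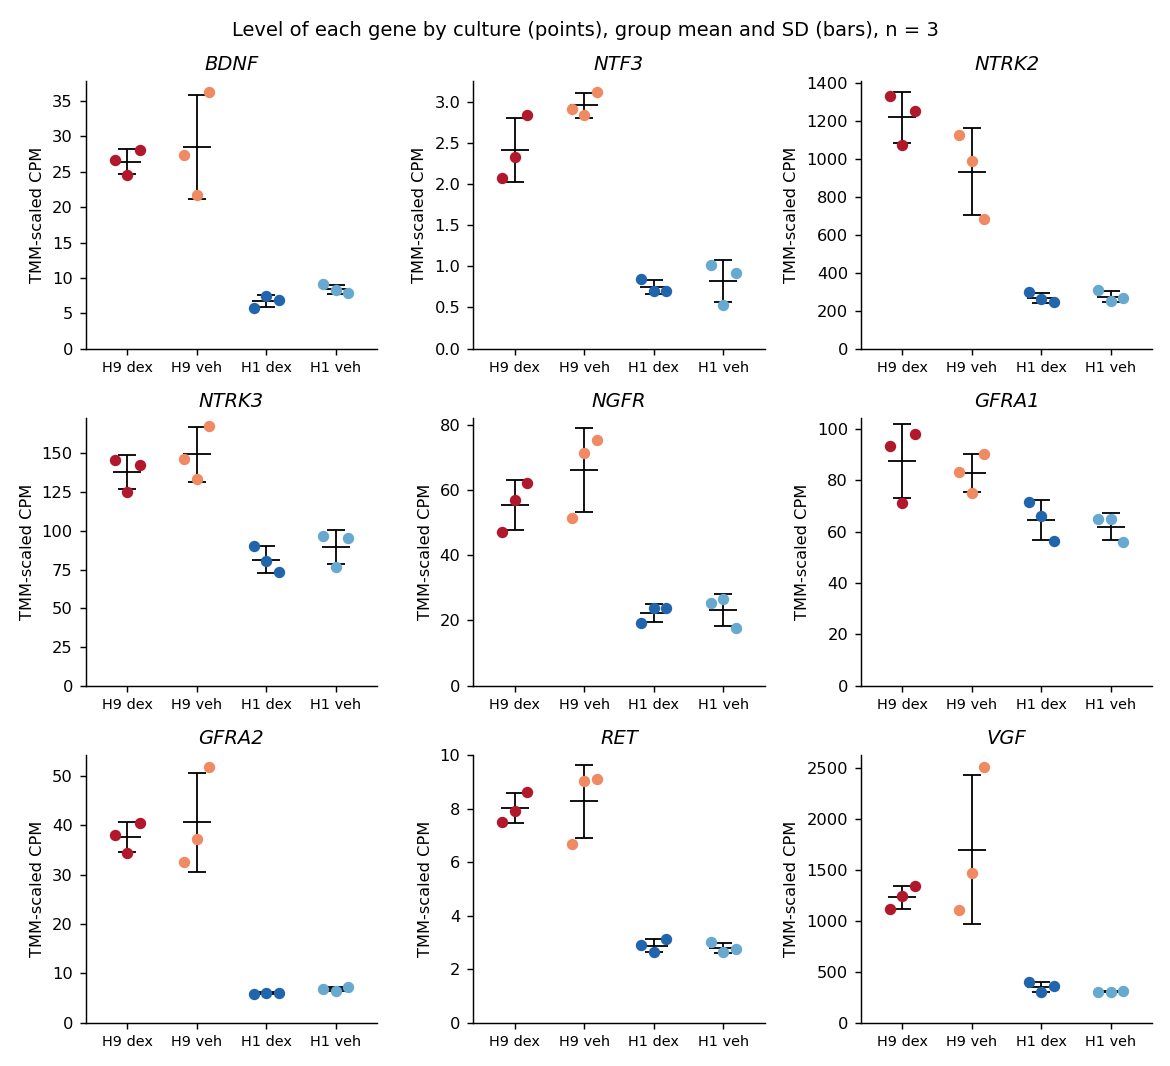
TMM-scaled CPM of each of the 9 genes in every culture (points), with the group mean and SD (bars, n = 3), for dexamethasone (dex) and vehicle (veh) cultures of H9 and H1. The H9 cultures lie above the H1 cultures in every panel except that of GFRA1, where H9 dexamethasone culture 2 (71.3) lies just under H1 dexamethasone culture 1 (71.6).

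BDNF (ENSG00000176697.18, chr11:27654893-27722058, minus strand, GRCh38) encodes the ligand of TrkB. It had 26.7, 24.6 and 28.1 CPM in H9 dexamethasone cultures and 27.4, 21.7 and 36.3 CPM in H9 vehicle cultures. In H1 it had 5.79, 7.39 and 6.92 CPM with dexamethasone and 9.12, 8.25 and 7.85 CPM with vehicle. The H9 groups overlapped, while all 3 H1 dexamethasone cultures lay below all 3 H1 vehicle cultures. The share of all tested genes whose treatments lay apart in this way was not counted, so this is not read as an effect. These levels rested on 520 to 733 reads per library in H9 and 150 to 216 in H1. With dexamethasone the fitted change was log2 -0.10 ± 0.17 (SE) in H9 and -0.33 ± 0.18 in H1, with adjusted p of 0.710 and 1.0. The 95% interval in H1 ran from -0.71 to 0.06. When H9 vehicle culture 3 was left out, the H9 value was 0.11 ± 0.12 and the H1 value was again -0.33, with an SE of 0.12 and an adjusted p of 0.356. Between lines, BDNF was log2 1.98 ± 0.18 higher in H9 in dexamethasone cultures, with an adjusted p of 3.95e-06. In vehicle cultures it was 1.76 ± 0.17 higher, with an adjusted p of 9.81e-06, and 1.55 ± 0.12 higher without H9 vehicle culture 3.

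BDNF shares 701 of its 7740 exon bases with the antisense gene BDNF-AS on the opposite strand. The strand setting of the counting is not given in the sources used here, so reads of the pair cannot be told apart there. BDNF-AS averaged 10.2 ± 0.84 CPM in H9 dexamethasone and 10.4 ± 0.867 CPM in H9 vehicle cultures (SD, n = 3 each). It averaged 11.6 ± 1.70 CPM in H1 dexamethasone and 13.1 ± 0.803 CPM in H1 vehicle cultures. BDNF-AS did not share the direction of BDNF between the lines: its line difference was log2 -0.19 ± 0.13 in dexamethasone cultures and -0.33 ± 0.13 in vehicle cultures, with adjusted p of 0.280 and 0.0566. The vehicle difference was -0.32 with an adjusted p of 0.0490 when H9 vehicle culture 3 was left out. In H1 the antisense gene was counted more often than BDNF, with 251 to 367 against 150 to 216 reads per library.

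NTF3 (ENSG00000185652.11, chr12:5432112-5521536) encodes neurotrophin-3 and had the lowest level of the 9 genes. It had 2.07, 2.34 and 2.84 CPM in H9 dexamethasone and 2.92, 2.84 and 3.13 CPM in H9 vehicle cultures. In H1 it had 0.850, 0.702 and 0.703 CPM with dexamethasone and 1.02, 0.535 and 0.921 CPM with vehicle. All 3 H9 dexamethasone cultures lay below the H9 vehicle cultures, with the nearest values alike at 2.84 CPM after rounding, while the H1 groups overlapped. As for BDNF, no share of all tested genes was counted beside this, and it is not read as an effect. These are few molecules, 42 to 74 reads per library in H9 and 14 to 24 in H1. Its fitted dexamethasone effect was log2 -0.28 ± 0.21 in H9 and -0.12 ± 0.26 in H1, with adjusted p of 0.424 and 1.0, and the H9 value was -0.24 without H9 vehicle culture 3. NTF3 was log2 1.68 ± 0.24 higher in H9 than in H1 with dexamethasone and 1.84 ± 0.24 higher with vehicle, with adjusted p of 1.44e-04 and 6.92e-05, and the vehicle difference was 1.81 without that culture. Per length, the ratio of BDNF to NTF3 was 3.74 to 4.85 in H9 dexamethasone and 2.57 to 3.97 in H1 dexamethasone cultures. With vehicle it was 2.88 to 4.38 in H9 and 3.21 to 5.82 in H1, so that the lines overlapped in both settings.

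NTRK2 (ENSG00000148053.15, chr9:84668551-85027070) encodes TrkB, including a kinase-free form that astrocytes are known to make and that gene counts do not separate. It had 1335, 1072 and 1256 CPM in H9 dexamethasone and 1128, 990 and 682 CPM in H9 vehicle cultures, which placed it at rank 48 and rank 64 of the 17819 tested genes. In H1 it had 296, 260 and 246 CPM with dexamethasone and 307, 249 and 267 CPM with vehicle. The lowest H9 vehicle value is that of culture 3, and the H9 groups overlapped. The dexamethasone change in H9 was log2 0.39 ± 0.17, with an unadjusted p of 0.0427, an adjusted p of 0.306 and a 95% interval of 0.02 to 0.76. It was 0.21 ± 0.11 without H9 vehicle culture 3. In H1 the change was -0.03 ± 0.17, with a 95% interval of -0.41 to 0.34. NTRK2 was log2 2.19 ± 0.18 higher in H9 than in H1 with dexamethasone and 1.77 ± 0.18 higher with vehicle, with adjusted p of 2.09e-06 and 1.01e-05, and the vehicle difference was 1.95 without H9 vehicle culture 3. The 7 astrocyte markers summed to 1003 to 1372 CPM in H9 dexamethasone, 826 to 1137 CPM in H9 vehicle, 672 to 788 CPM in H1 dexamethasone and 714 to 833 CPM in H1 vehicle cultures. The sums of the lines lay apart with dexamethasone and overlapped with vehicle. Of these markers, 4 of 7 were called higher in H9 with dexamethasone and 3 of 7 with vehicle, and none lower. All tested genes gave 22.5% and 25.7% higher and 21.2% lower in each setting. The median line difference of the 7 markers was log2 0.87 with dexamethasone and -0.0088 with vehicle. Their part in the NTRK2 difference was not tested.

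NTRK3 (ENSG00000140538.16, chr15:87859751-88256768, minus strand) encodes TrkC. It had 146, 125 and 142 CPM in H9 dexamethasone and 146, 133 and 168 CPM in H9 vehicle cultures, against 90.2, 80.6 and 73.1 CPM in H1 dexamethasone and 96.7, 76.8 and 95.4 CPM in H1 vehicle cultures. The treatments overlapped in both lines and the lines did not overlap. The dexamethasone change was log2 -0.11 ± 0.13 in H9, or -0.02 ± 0.10 without H9 vehicle culture 3, and -0.14 ± 0.13 in H1. The line difference was 0.76 ± 0.13 with dexamethasone and 0.74 ± 0.13 with vehicle, with adjusted p of 5.11e-04 and 6.49e-04, less than that of NTRK2, and the vehicle difference was 0.64 without that culture. Per length, NTRK2 stood at 11.6 ± 0.384 times NTRK3 in H9 dexamethasone cultures and at 4.33 ± 0.0897 times NTRK3 in H1 dexamethasone cultures (SD, n = 3 each). In vehicle cultures the ratio was 5.33 to 10.1 in H9, with the lowest value in culture 3, and 3.67 to 4.26 in H1. The ratios of the lines did not overlap in either setting, for which the exact two-sided permutation test gave p = 0.1 in each, the smallest p that 3 against 3 libraries allow.

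NGFR (ENSG00000064300.8, chr17:49495293-49515017) encodes p75, a receptor of the tumour necrosis factor family. It had 47.0, 56.9 and 62.0 CPM in H9 dexamethasone and 51.4, 71.4 and 75.4 CPM in H9 vehicle cultures, against 19.2, 23.9 and 23.9 CPM in H1 dexamethasone and 25.4, 26.6 and 17.7 CPM in H1 vehicle cultures. The treatments overlapped in each line. With dexamethasone the value was log2 -0.25 ± 0.18 in H9, or -0.15 ± 0.16 without H9 vehicle culture 3, and -0.06 ± 0.19 in H1. NGFR was 1.31 ± 0.19 higher in H9 with dexamethasone and 1.51 ± 0.19 higher with vehicle, with adjusted p of 1.57e-04 and 5.86e-05, and the vehicle difference was 1.402 without that culture. Of its 4150 exon bases, NGFR shares 924 with an unnamed gene and 202 with NGFR-AS1, both on the opposite strand. Those genes were counted at no more than 1 and 4 reads per library. As the strand setting is not given, reads in the shared bases cannot be assigned to a strand. NGFR is also a known marker of neural crest and Schwann cells. The 8 markers listed for those cells summed to 49.6 to 57.0 CPM in H9 dexamethasone, 33.5 to 59.2 CPM in H9 vehicle, 46.0 to 48.8 CPM in H1 dexamethasone and 54.9 to 65.8 CPM in H1 vehicle cultures. The sums of the lines lay apart with dexamethasone and overlapped with vehicle. Of the 5 that could be tested, 0 were called higher and 1 lower in H9 with dexamethasone, and 2 higher and 1 lower with vehicle. All tested genes gave 22.5% and 25.7% higher and 21.2% lower in each setting. SOX10, listed for those cells and also for the oligodendrocyte lineage, was at 0 in all 6 dexamethasone libraries and in 4 of 6 vehicle libraries. It was 0.0680 CPM in H9 vehicle culture 3 and 0.0401 CPM in H1 vehicle culture 3. These low values may reflect the counting and are not read as absence of such cells. The part of such cells in the NGFR difference was not tested.

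GFRA1 (ENSG00000151892.14, chr10:116056925-116273467, minus strand) encodes the GDNF co-receptor and differed least between the lines. It had 93.3, 71.3 and 98.3 CPM in H9 dexamethasone and 83.2, 75.2 and 90.3 CPM in H9 vehicle cultures. In H1 it had 71.6, 66.2 and 56.3 CPM with dexamethasone and 65.0, 65.0 and 55.9 CPM with vehicle. The lines overlapped slightly with dexamethasone and lay apart with vehicle. For dexamethasone the fit gave log2 0.08 ± 0.14 in H9 and 0.06 ± 0.14 in H1, with 95% intervals of -0.22 to 0.38 and -0.24 to 0.36, and 0.15 ± 0.12 in H9 without H9 vehicle culture 3. The line difference was 0.44 ± 0.14 with dexamethasone and 0.42 ± 0.14 with vehicle, with adjusted p of 0.0221 and 0.0257, and the vehicle difference was 0.35 without that culture. This call was not stable. In dexamethasone cultures it was lost without H9 culture 1 or 3 or H1 culture 2 or 3. In vehicle cultures it was lost when H9 culture 1 or any one of the 3 H1 cultures was left out, and with no filter on low counts (adjusted p = 0.0528). Over the 12 fits that each leave out a library, the difference stayed between 0.35 and 0.57 with dexamethasone and between 0.35 and 0.48 with vehicle.

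GFRA2 (ENSG00000168546.10, chr8:21690403-21812357, minus strand) encodes the neurturin co-receptor and differed most between the lines. It had 38.0, 34.5 and 40.6 CPM in H9 dexamethasone and 32.6, 37.3 and 51.9 CPM in H9 vehicle cultures, against 5.76, 6.07 and 6.10 CPM in H1 dexamethasone and 6.91, 6.50 and 7.25 CPM in H1 vehicle cultures. The H9 treatments overlapped, and the 3 H1 dexamethasone cultures lay below the 3 H1 vehicle cultures. As for BDNF, no share of all tested genes was counted beside this, and it is not read as an effect. The dexamethasone change was log2 -0.10 ± 0.15 in H9 and -0.20 ± 0.16 in H1, with adjusted p of 0.668 and 1.0. GFRA2 was 6.30 times as high in H9 as in H1 with dexamethasone (log2 2.66 ± 0.16) and 5.88 times as high with vehicle (log2 2.56 ± 0.16), with adjusted p of 2.35e-07 and 3.38e-07. Without H9 vehicle culture 3 the vehicle difference was 2.34 and the dexamethasone change in H9 was 0.11 ± 0.09. Per length, GFRA1 stood at 1.22 to 1.45 times GFRA2 in H9 dexamethasone and at 5.45 to 7.35 times GFRA2 in H1 dexamethasone cultures. With vehicle the ratio was 1.03 to 1.51 in H9 and 4.56 to 5.91 in H1. The 2 co-receptors were thus close in level in H9 and far apart in H1, with exact two-sided permutation p = 0.1 in each setting, the smallest possible.

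RET (ENSG00000165731.18, chr10:43077027-43130351) encodes the kinase through which both co-receptors signal. It had 7.50, 7.94 and 8.64 CPM in H9 dexamethasone and 6.69, 9.02 and 9.11 CPM in H9 vehicle cultures. In H1 it had 2.90, 2.64 and 3.13 CPM with dexamethasone and 3.01, 2.64 and 2.76 CPM with vehicle. The treatments overlapped in both lines. The dexamethasone change was log2 -0.04 ± 0.15 in H9, or 0.03 ± 0.15 without H9 vehicle culture 3, and 0.04 ± 0.16 in H1. The line difference was 1.47 ± 0.16 with dexamethasone and 1.56 ± 0.16 with vehicle, with adjusted p of 1.47e-05 and 1.10e-05, and the vehicle difference was 1.49 without that culture. Per length, GFRA1 exceeded RET 6.42 to 8.88 times in H9 dexamethasone, 5.95 to 8.89 times in H9 vehicle, 12.9 to 17.9 times in H1 dexamethasone and 14.5 to 17.6 times in H1 vehicle cultures. RET marks dopamine and motor neurons, among others. The 6 dopamine neuron markers summed to 37.7 to 49.6 CPM in H9 dexamethasone, 40.2 to 52.1 CPM in H9 vehicle, 22.9 to 28.2 CPM in H1 dexamethasone and 21.2 to 22.2 CPM in H1 vehicle cultures, and of the 4 that could be tested 3 were called higher in H9 with dexamethasone and 4 with vehicle. The 6 markers of motor and autonomic neurons summed to 16.9 to 21.8 CPM in H9 dexamethasone, 17.7 to 19.4 CPM in H9 vehicle, 18.1 to 28.6 CPM in H1 dexamethasone and 15.5 to 17.7 CPM in H1 vehicle cultures, and of the 3 that could be tested 1 was called higher in H9 with dexamethasone and 0 with vehicle. Among all tested genes, 22.5% were called higher in H9 with dexamethasone and 25.7% with vehicle. The transporter genes SLC6A3 of dopamine neurons and SLC18A3 of cholinergic neurons were listed at 0 in all 12 libraries, which may reflect the counting rather than the cells. The part of such cells in the RET difference was not tested.

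VGF (ENSG00000128564.6, chr7:101162509-101165593, minus strand) had the highest level per length of the 9 genes in every group. It had 1115, 1244 and 1340 CPM in H9 dexamethasone and 1109, 1476 and 2518 CPM in H9 vehicle cultures. In H1 it had 400.3, 303 and 362 CPM with dexamethasone and 306, 301 and 313 CPM with vehicle. VGF ranked 45 and 26 among all tested genes by CPM in the H9 dexamethasone and H9 vehicle groups, and 331 and 421 in the H1 dexamethasone and H1 vehicle groups. The treatments overlapped in both lines. The dexamethasone change was log2 -0.46 ± 0.23 in H9 and 0.21 ± 0.23 in H1, with adjusted p of 0.320 and 1.0. The H9 value rested on culture 3: without it the change was -0.07 ± 0.12. VGF was log2 1.80 ± 0.24 higher in H9 with dexamethasone and 2.47 ± 0.25 higher with vehicle, with adjusted p of 9.40e-05 and 1.01e-05. Without H9 vehicle culture 3 the vehicle difference was 2.08 ± 0.12.

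**Figure D2:**
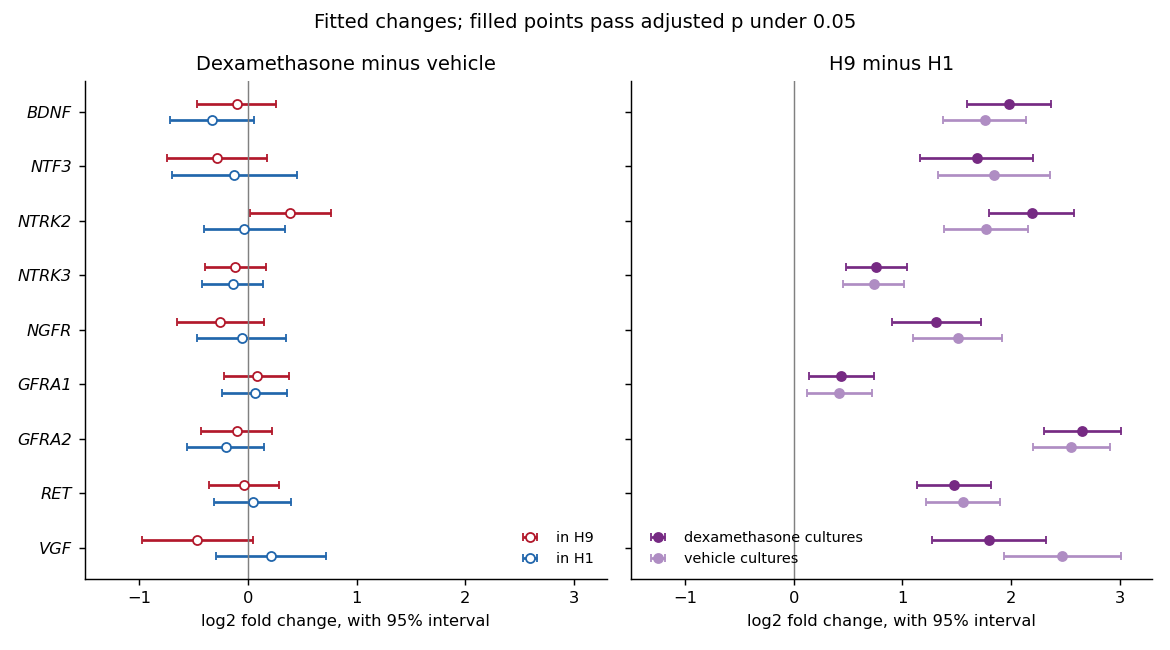
Fitted log2 fold changes (points) with 95% intervals (bars) of the 9 genes, for dexamethasone minus vehicle in H9 and in H1 (left) and for H9 minus H1 in dexamethasone and in vehicle cultures (right), where filled points passed an adjusted p under 0.05. Every point on the left is open and lies between -0.46 and 0.39, and every point on the right is filled and lies between 0.42 and 2.66.

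Taken as a list, 0 of the 9 genes passed the test for dexamethasone in H9, where 0.0673% of all tested genes did, and 0 of 9 in H1, where 0.0505% did. At an unadjusted p under 0.05 there was 1 of the 9 in H9, NTRK2, and 0 of the 9 in H1. Without H9 vehicle culture 3 there was 0 of the 9 in H9 and 1 of the 9 in H1, BDNF, with an unadjusted p of 0.0177. Over both lines together 0 of 9 passed, against 0.101% of all tested genes, and the changes ran from log2 -0.21 for BDNF to 0.18 for NTRK2. The median change of the 9 was -0.10 in H9 and -0.06 in H1, against -0.02 and 0.00 for all tested genes. The H9 median became 0.03 without H9 vehicle culture 3. DESeq2 and limma-voom also called 0 of the 9 in each line. The widest 95% intervals were that of VGF in H9, -0.97 to 0.05, and that of NTF3 in H1, -0.70 to 0.45, so changes of that size were not excluded by the test.

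The difference of the dexamethasone effects, H9 minus H1, also passed for 0 of the 9 genes. It passed for 0.0% of all tested genes, with 1329 genes at an unadjusted p under 0.05 by edgeR and 0 calls by DESeq2 or limma-voom. The largest values were log2 -0.68 ± 0.33 for VGF, with an unadjusted p of 0.0630, and 0.42 ± 0.24 for NTRK2, with an unadjusted p of 0.106, both with an adjusted p of 0.548. Without H9 vehicle culture 3 these became -0.28 ± 0.16 and 0.24 ± 0.14. The largest value was then that of BDNF, 0.44 ± 0.17 against 0.23 ± 0.24 with all libraries, and that of GFRA2 was 0.31 ± 0.14 against 0.10 ± 0.22. These 2 of the 9 had unadjusted p of 0.0213 and 0.0392 in that fit, against 0 of 9 under 0.05 with all libraries, and an adjusted p of 0.421 and 0.466. Since this contrast is also the line difference with dexamethasone minus that with vehicle, no gene of the 9 was shown to differ more between the lines in one setting than in the other.

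Levels of different genes can be set beside each other only per length, here as CPM per kb of merged exon. In H9 dexamethasone cultures the order was VGF (456 ± 41.8), NTRK2 (60.0 ± 6.63), NGFR (13.3 ± 1.83), GFRA1 (9.06 ± 1.48), GFRA2 (6.59 ± 0.536), NTRK3 (5.15 ± 0.414), BDNF (3.42 ± 0.229), RET (1.16 ± 0.0827) and NTF3 (0.828 ± 0.133; SD, n = 3), and no neighbours overlapped. In H9 vehicle cultures the order was the same, but GFRA1 overlapped GFRA2, GFRA2 overlapped NTRK3, and RET overlapped NTF3. In H1 dexamethasone cultures the order was VGF (131 ± 18.1), NTRK2 (13.1 ± 1.28), GFRA1 (6.68 ± 0.803), NGFR (5.38 ± 0.657), NTRK3 (3.04 ± 0.320), GFRA2 (1.05 ± 0.0329), BDNF (0.865 ± 0.106), RET (0.418 ± 0.0351) and NTF3 (0.258 ± 0.0292). In H1 vehicle cultures the order was again that of H1 dexamethasone cultures, with overlaps of GFRA1 with NGFR and of GFRA2 with BDNF. Between the lines the order thus differed in the places of GFRA1 and GFRA2 relative to NGFR and NTRK3. Merged exons include long untranslated stretches of NTRK2 and NTRK3, so a level per kb understates genes of which mainly short forms are made. The levels per kb of BDNF and NGFR also carry the limit of exon bases shared with genes on the opposite strand.

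**Figure D3:**
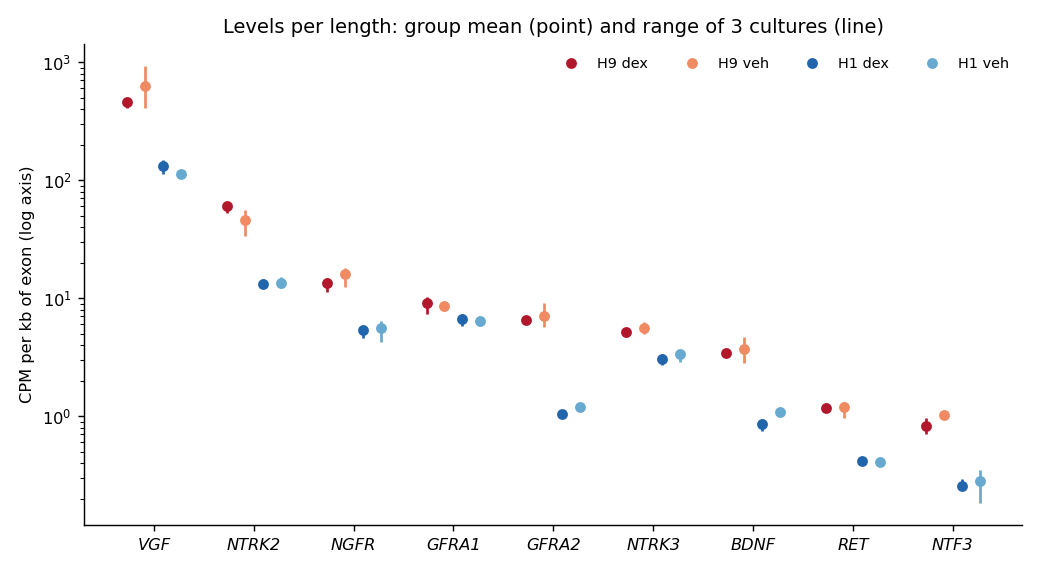
Level per length, in CPM per kb of merged exon on a log axis, of the 9 genes in the 4 groups (points, means; lines, range of 3 cultures), in the order of the H9 dexamethasone group. VGF is highest in all 4 groups, at 456 and 629 in H9 dexamethasone and vehicle cultures and 131 and 113 in H1 dexamethasone and vehicle cultures, and GFRA2 is the gene with the widest gap between the lines.

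The other ligands of the families that are reported here were low. PSPN, the persephin gene, averaged 3.18 ± 0.236 CPM in H9 dexamethasone and 5.40 ± 0.836 CPM in H1 dexamethasone cultures (SD, n = 3 each). It was lower in H9 there, at log2 -0.76 ± 0.22 with an adjusted p of 0.0136, a call that was lost without H9 dexamethasone culture 1 or H1 dexamethasone culture 3, while the difference stayed between -0.85 and -0.63. With vehicle it was -0.32 ± 0.22 with an adjusted p of 0.245, and -0.58 with an adjusted p of 0.0106 without H9 vehicle culture 3. GDNF itself did not pass the filter on low counts, at 0.136 to 0.527 CPM over all libraries, and NRTN, which encodes neurturin, reached at most 0.408 CPM. NTF4 was listed at 0 in all 12 libraries. As 243 of its 932 exon bases are shared with another annotated gene on the same strand, that 0 may reflect the counting, and no upper limit is drawn from it.

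Line differences of related genes are read against the 22.5% of all tested genes called higher and the 21.2% called lower in H9 with dexamethasone, and the 25.7% called higher and 21.2% called lower with vehicle. Among 10 further receptors and co-receptors, 8 were tested, and 4 were higher and 3 lower in H9 in each setting. SORCS1, of the sortilin family of sorting receptors that bind neurotrophin precursors, averaged 48.9 ± 2.13 CPM in H9 dexamethasone and 154 ± 5.21 CPM in H1 dexamethasone cultures, and 58.4 ± 11.9 CPM in H9 vehicle and 203 ± 5.13 CPM in H1 vehicle cultures. It was thus opposite in direction to the 9 genes, at log2 -1.66 ± 0.13 with dexamethasone and -1.80 ± 0.13 with vehicle, with adjusted p of 1.25e-06 and 7.43e-07, and -1.98 with vehicle without H9 vehicle culture 3. SORCS3 was higher in H9, by 1.04 ± 0.23 with dexamethasone and 1.25 ± 0.23 with vehicle, or 0.89 without that culture, and so was the heparan sulfate carrier SDC3, by 0.87 ± 0.12 with dexamethasone and 1.01 ± 0.13 with vehicle. SORL1, another sorting receptor gene of that family, was higher in H9 by 0.86 ± 0.13 with dexamethasone and 0.80 ± 0.13 with vehicle. The others called, named after their values were seen, were the alternative GDNF receptor gene NCAM1, higher in H9, and SORT1 and SORCS2, both lower. For dexamethasone, 0 of the 8 passed, and SORCS1 in H1 was at -0.40 ± 0.12 with an adjusted p of 1.0. Without H9 vehicle culture 3 that change had the same size and an adjusted p of 0.00161, and over both lines it was -0.24 with an adjusted p of 0.00904.

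The list of cleavage and dense-core vesicle genes holds the proteases that mature neurotrophins and VGF. Of 14 tested, 7 were higher and 2 lower in H9 with dexamethasone, and 8 were higher and 2 lower with vehicle, beside 22.5% and 25.7% of all tested genes higher and 21.2% lower in each setting, with medians of log2 0.59 and 0.56. The prohormone convertase gene PCSK1 averaged 132 CPM in H9 dexamethasone and 36.2 CPM in H1 dexamethasone cultures, and 108 CPM in H9 vehicle and 40.1 CPM in H1 vehicle cultures, with differences of 1.86 ± 0.14 and 1.43 ± 0.14. Of the granins, which share vesicles with VGF, CHGA did not pass the filter on low counts. CHGB was higher in H9 by 1.49 ± 0.24 with dexamethasone and 1.96 ± 0.24 with vehicle, or 1.503 without H9 vehicle culture 3. SCG2 was higher by 1.56 ± 0.15 with dexamethasone. For dexamethasone 0 of the 14 passed in either line.

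Of 13 tested products known to be induced by activity or cyclic AMP, 10 were higher and 0 lower in H9 in each setting, beside 22.5% of all tested genes higher with dexamethasone, 25.7% higher with vehicle and 21.2% lower in each, with medians of log2 1.32 with dexamethasone and 0.91 with vehicle. ARC, an immediate early gene of synapses, averaged 47.9 CPM in H9 dexamethasone and 8.16 CPM in H1 dexamethasone cultures, and 51.8 CPM in H9 vehicle and 7.18 CPM in H1 vehicle cultures. Its line difference was 2.55 ± 0.18 with dexamethasone and 2.85 ± 0.19 with vehicle, or 2.65 without H9 vehicle culture 3, and that of NR4A1, a nuclear receptor gene induced by cyclic AMP, was 1.59 ± 0.14 and 1.83 ± 0.14. PCSK1 is in this list too, and 3 genes of the lists stand in a pair of lists. For dexamethasone 0 of the 13 passed in either line.

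Among 15 regulators of BDNF transcription, 6 were higher and 4 lower in H9 with dexamethasone and 6 higher and 3 lower with vehicle. All tested genes gave 22.5% and 25.7% higher and 21.2% lower in each setting. NPAS4, an activity-induced factor that binds BDNF promoters, had the largest difference of the list, with 42.6 CPM in H9 dexamethasone and 4.37 CPM in H1 dexamethasone cultures, and 42.1 CPM in H9 vehicle and 5.59 CPM in H1 vehicle cultures. Its difference was log2 3.28 ± 0.18 with dexamethasone and 2.91 ± 0.17 with vehicle. NR3C2, the mineralocorticoid receptor gene, was the one gene of the pathway lists called for dexamethasone. It averaged 12.1 CPM in H9 dexamethasone and 15.7 CPM in H9 vehicle cultures, and 3.92 CPM in H1 dexamethasone and 6.96 CPM in H1 vehicle cultures. It fell by 0.60 ± 0.09 over both lines, with an adjusted p of 0.0237, while the lines alone gave -0.37 ± 0.12 in H9 and -0.83 ± 0.13 in H1, with adjusted p of 0.299 and 0.0657. The call over both lines was lost without H9 vehicle culture 2, H9 dexamethasone culture 1 or 3, or any one of the 6 H1 cultures, with adjusted p of 0.00214 to 0.110 over the 12 fits, while the change stayed between -0.63 and -0.56. Without H9 vehicle culture 3 the value in H1 alone was -0.83 with an adjusted p of 0.00314. The glucocorticoid receptor gene NR3C1 was higher in H9 by 0.60 ± 0.12 with dexamethasone, where H9 averaged 36.7 ± 1.20 CPM against 24.3 ± 0.953 CPM for H1. With vehicle its group means lay closer, 37.3 ± 6.27 CPM for H9 against 31.8 ± 2.68 CPM for H1 (SD, n = 3 each). Its dexamethasone change in H1 was -0.39 ± 0.12 and did not pass. Without H9 vehicle culture 3 that change was again -0.39, with an adjusted p of 0.0546. The line difference of NR3C1 with dexamethasone is therefore not read as one that also holds with vehicle.

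Genes listed as adaptors, feedback inhibitors or p75 partners were called in both directions. Of 19 adaptors of TRK and RET receptors, 7 were higher and 2 lower in H9 with dexamethasone and 9 higher and 4 lower with vehicle, beside the shares of all tested genes of 22.5% and 25.7% higher and 21.2% lower in each. DOK5, a docking protein of RET and TRK receptors, was higher by log2 1.23 ± 0.10 with dexamethasone and 0.99 ± 0.10 with vehicle. Of 12 feedback inhibitors, 4 were higher and 1 lower with dexamethasone and 4 higher and 2 lower with vehicle. DUSP5, a phosphatase that inactivates ERK and is itself induced by it, had 60.6 CPM in H9 dexamethasone and 15.0 CPM in H1 dexamethasone cultures, and 43.5 CPM in H9 vehicle and 16.1 CPM in H1 vehicle cultures. With vehicle its difference was log2 1.44 ± 0.22, or 1.70 without H9 vehicle culture 3. Of 8 tested partners of p75, 3 were higher and 1 lower with dexamethasone and 2 higher and 0 lower with vehicle, among them the co-receptor gene LINGO1, by 0.87 ± 0.10 with dexamethasone and 0.99 ± 0.10 with vehicle. The 2 of 8 partners of p75 called higher with vehicle stood at about the share of all tested genes, and counts in lists this short are read no further. None of these 3 lists held a gene called for dexamethasone in either line.

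**Figure D4:**
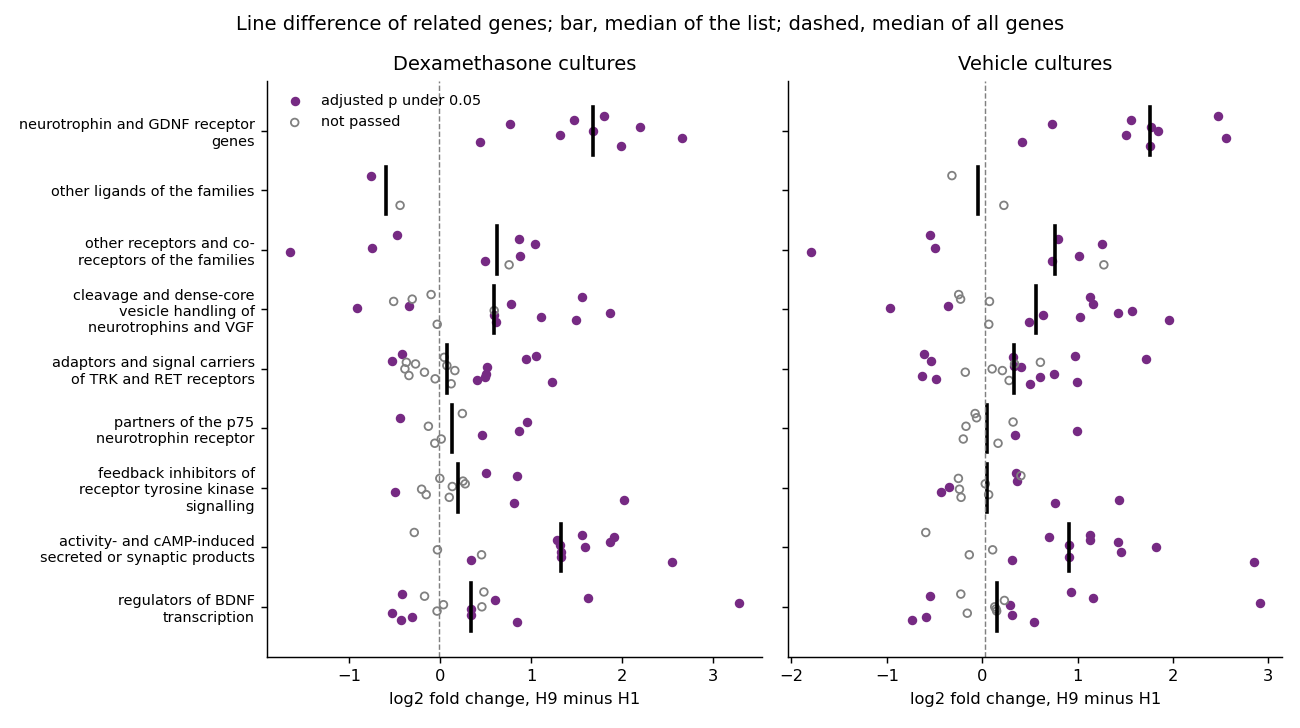
Line difference (log2 fold change, H9 minus H1) of the 9 genes and of the tested genes of 8 related lists in dexamethasone cultures (left) and vehicle cultures (right), where filled points passed an adjusted p under 0.05, black bars are medians and the dashed line is the median of all tested genes. The 9 genes lie on the H9 side with medians of 1.68 and 1.76, and the activity- and cAMP-induced products follow with medians of 1.32 and 0.91.

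Markers of cell types also differed between the lines. Their calls stand beside 22.5% of all tested genes called higher in H9 with dexamethasone, 25.7% with vehicle, and 21.2% called lower in each setting. The 9 neuronal markers summed to 5893 to 6076 CPM in H9 dexamethasone, 5303 to 5442 CPM in H9 vehicle, 3374 to 3896 CPM in H1 dexamethasone and 3498 to 3503 CPM in H1 vehicle cultures, and in each setting 6 of 9 were called higher in H9 and none lower. The 7 markers of dividing cells summed to 80.0 to 100.1 CPM in H9 dexamethasone, 62.1 to 88.1 CPM in H9 vehicle, 481 to 490.2 CPM in H1 dexamethasone and 418 to 487 CPM in H1 vehicle cultures, and all 7 were lower in H9 in each setting. The 8 mesenchymal markers summed to 209.8 to 244 CPM in H9 dexamethasone, 233 to 381 CPM in H9 vehicle, 1445 to 3057 CPM in H1 dexamethasone and 1821 to 3271 CPM in H1 vehicle cultures. Of the 8, 4 were called lower and 1 higher in H9 in each setting, so the sums do not speak for every marker. SOX2 and HES5 among the radial glia markers were listed at 0 in all 12 libraries, while the other 5 summed to 4271 to 7944 CPM, so that these zeros may reflect the counting and are not read as absence. The summed levels of microglial and endothelial markers were near 0. The part of these markers in the line difference of the 9 genes was not tested.

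Within a line, the genes whose log2 CPM most followed BDNF over its 6 libraries were CHSY3, SORL1, KANK1, BBOX1-AS1 and LAMC1, chosen by the smaller of the 2 within-line values of Pearson's r among 14966 genes with a mean of at least 1 CPM. SORL1, which encodes a sorting receptor of the family named above, had r = 0.926 in H9 and 0.996 in H1, and 0.731 and 0.985 after leaving out the 2 libraries farthest from the median of BDNF. CHSY3, a chondroitin synthase gene, had r = 0.958 and 0.929, and 0.896 and 0.922 without those libraries. Without them r was 0.692 in H9 and 0.774 in H1 for KANK1, 0.40 and 0.61 for BBOX1-AS1, and 0.539 and 0.737 for LAMC1. For VGF the genes were PACS2, PLXNA1, MIER2, ZNF444 and HDAC5, with r of 0.973 to 0.994, but in H1 the values without the 2 farthest libraries were -0.45 to 0.58. BDNF and VGF themselves did not share a direction in the 2 lines: r was 0.655 in H9 and -0.885 in H1. Without the 2 libraries farthest from the median of BDNF it was 0.054 in H9 and -0.807 in H1. Without the 2 farthest from the median of VGF it was -0.579 in H9 and -0.0225 in H1. By the same rule GFRA2 was the closest to BDNF among the other 8 genes, with r = 0.759 in H9 and 0.793 in H1, and 0.421 and 0.602 without the 2 farthest libraries, while NTRK3 had a higher r in H9, 0.885, and 0.198 in H1. The genes listed first for BDNF and for VGF were the highest of 14966 by r itself, so their high r follows from the choice. All these values of r share depth, scaling and, in H9, the deviating culture, and describe 6 libraries per line. They also mix dexamethasone and vehicle cultures. In H1, CHSY3, SORL1, KANK1, BBOX1-AS1 and LAMC1 each had a lower mean with dexamethasone than with vehicle, as BDNF did. The part of the treatment in these values of r was not tested.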

How the data were processed

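Polyadenylated RNA was sequenced in 12 cultures, 3 per line and treatment. The authors deposited whole-number read counts for every gene, 1 file per library, with no normalization. STAR 2.5.3a, HTSeq, hg38 and GRCh38.p10 are named in the submitters' processing notes. Strand setting, annotation release and the flow cell of a library were not given in the sources used here, so no batch could be modelled. Groups and culture numbers come from the labels.

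Genes were kept by filterByExpr of edgeR 4.0.16, scaled by TMM and tested with the quasi-likelihood F-test, with 1 mean per group over all 12 libraries (8 residual degrees of freedom) and Benjamini-Hochberg adjustment over 17819 genes. The SE was taken as log2 fold change over the root of F, and 95% intervals use the fit's total degrees of freedom. P-values rest on the spread among sister cultures alone. Coordinates and merged exon lengths are from GENCODE 29 (GRCh38, 1-based). Promoter windows are from RefSeq. The test was checked on simulated counts. No pair of sister cultures agreed within sampling noise.

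The 9 genes, the 8 pathway lists with 96 genes and the 13 marker lists were chosen with earlier results of these data known. All 9 genes are described. Some related genes are not reported here. From each list at most 4 called genes with the largest change, or else at most 2 with the smallest p, could be named in each comparison, and not all are. Alternatives were RLE scaling, DESeq2 1.42.0, limma-voom (limma 3.58.1), no filter, a filter that asks for CPM of 1 or more in 3 or more libraries, sizes computed without mitochondrial and the 20 most abundant genes, fits of the 6 libraries compared, culture number as a block, and each library left out. The block without H9 vehicle culture 3 was added after the data were seen. Computations used R 4.3.3 and Python.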

Additional observations from a re-analysis of the deposited data

How the results depend on the processing

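The 9 genes kept their calls in nearly every alternative: 0 of 9 were called for dexamethasone in each line, over both lines or for the difference of the effects under every alternative run for that comparison (fits of 6 libraries were made for single lines and settings only), and 9 of 9 were called higher in H9, or 8 of 9 where GFRA1 missed the threshold. Its difference was 0.35 to 0.57 in dexamethasone and 0.35 to 0.48 in vehicle cultures over the 12 fits that leave out a library, and 0.38 in vehicle cultures with no filter. Counts over all genes moved more. DESeq2 called 166 genes for dexamethasone in H9, 32 in H1 and 116 over both lines, no filter gave 24 in H9 and 30 over both lines, and fits of 6 libraries gave 2 in H9, 50 in H1 and 5284 for the lines in vehicle cultures. Leaving out a library gave 6 to 53 in H9, 3 to 59 in H1, 10 to 140 over both lines and, for the lines, 6106 to 11697 in dexamethasone and 6711 to 10608 in vehicle cultures, with the highest counts without H9 vehicle culture 3. The causes were not tested.

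Same-numbered cultures of a line correlated at -0.01 to 0.18 in their deviations and differently numbered ones at -0.18 to 0.08, and 7 of 12 libraries correlated best with their own number. This hint of pairing comes from the data. Each library had only 3 possible partners, the cultures of the other treatment in its line. Deviations within a group share a mean, and no count expected without pairing was computed. As the labels state no pairing and not every pair exceeded 0.1, the cultures were not treated as paired. The replicate block gave 9 genes for dexamethasone in H9, 5 in H1 and 15 over both lines, and changed no call of the 9 genes. With the replicate block and without H9 vehicle culture 3, an alternative chosen after seeing the data, the counts were 62 in H9, 141 in H1, 184 over both lines and 11908 for the lines in dexamethasone cultures, and BDNF (0.10) and GFRA2 (0.067) in H9 and VGF (0.0583) over both lines changed sign.

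Signs of small uncalled values also turned. RET was 0.0154 in H9 with no filter and -0.0036 over both lines with the CPM filter. Over the fits that leave out a library, the dexamethasone changes in H9 ran from -0.26 to 0.11 for BDNF, -0.0071 to 0.21 for GFRA1, -0.20 to 0.11 for GFRA2 and -0.14 to 0.0389 for RET. In H1 they ran from -0.36 to 0.0514 for NTF3, -0.12 to 0.0537 for NTRK2, -0.22 to 0.0504 for NGFR, -0.0175 to 0.15 for GFRA1 and -0.0166 to 0.10 for RET. Over both lines they ran from -0.0433 to 0.0416 for RET and -0.22 to 0.0725 for VGF. The differences between the effects ran from -0.33 to 0.0808 for NTF3, -0.0443 to 0.13 for NTRK3 and -0.0692 to 0.15 for GFRA1.

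Depth limits NTF3 most, at 14 to 24 reads per H1 library, and RET in H1, at 64 to 80.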
